A study of Homo sapiens with 36 samples.

Results

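The 9 genes described here are used as markers of epithelial cells and of their exchange for a neural or mesenchymal state. They are E-cadherin (CDH1), N-cadherin (CDH2), EPCAM, CLDN6, ESRP1, the keratins KRT8 and KRT18, and the repressors ZEB1 and ZEB2. Each was taken by its gene symbol from the tables of expected counts and of TPM, with no cutoff on a measured value. Earlier results of these data were known when the set was chosen. The members make up 9 of the 62710 genes of the series. KRT8 and KRT18 lie next to each other and share a stretch of sequence, so they are not independent loci.

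The study followed human embryonic stem cells of the H9 line through induction of neurons with NGN2, a proneural transcription factor switched on by doxycycline. The labels name 3 genotypes, WT, RAI1 Het (here HET) and RAI1 Knockout (here KO), where RAI1 encodes a chromatin-associated regulator of transcription. Each genotype was sampled on days 0, 3 and 7, giving 9 groups of 4 libraries. Per the labels, all lines were kept in mTeSR Plus on Geltrex and then moved to Neurobasal-A with doxycycline, GlutaMAX, CultureOne, B27, NT3 and GDNF, so the NGN2 system and the medium are shared by the controls. The type of RAI1 mutation, the number of clones behind each genotype and the way NGN2 was introduced are not given in the sources used here. The replicates are called biological in the labels, without saying whether they were separate inductions, so the p-values measure the spread between these libraries only. The cell type is labelled iNeuron on every day, day 0 included.

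Epithelial cells are held together by E-cadherin in adherens junctions, by claudins in tight junctions and by desmosomes anchored to keratin filaments, and human pluripotent stem cells share much of this equipment. Neuroepithelial and neural cells are known for N-cadherin instead, and the exchange of the cadherins is a textbook mark of neural induction and of epithelial to mesenchymal transition. ZEB1 and ZEB2 are zinc finger repressors that bind E-box sequences in the promoters of CDH1 and other epithelial genes, ESRP1 is a splicing factor of epithelial cells, and the miR-200 microRNAs repress both ZEB genes.

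Library totals ran from 23.9 M to 56.7 M expected counts. Levels are given as CPM, the usual count per library total, here after TMM scaling of that total, except where genes are compared with each other, which uses TPM because it corrects for length. RAI1 itself had 22.1 to 40.4 CPM in WT, 27.8 to 46.9 in HET and 23.6 to 48.6 in KO at day 0, and 38.1 to 73.1, 49.7 to 86.5 and 63.3 to 99.97 at day 7. The mutant libraries were not lower, so RAI1 counts do not check the genotype labels, and WT, HET and KO below mean the libraries so labelled. Small structural RNAs made up 4.51 to 6.42% of counts in WT, 4.16 to 5.98% in HET and 4.02 to 6.45% in KO at day 0, 8.99 to 19.6%, 5.11 to 16.1% and 3.54 to 18.8% at day 3, and 14.5 to 25.6%, 2.84 to 27.5% and 9.90 to 15.8% at day 7. The pluripotency list (8 genes such as POU5F1 and NANOG) summed to 2919 to 3790.0 CPM in WT at day 0 and 70.7 to 106 at day 7. The neuron list (10 genes such as TUBB3 and MAP2) summed to 268 to 539.9 and 5867 to 11740.0 CPM. The day 0 libraries thus carried more of the stem cell markers and less of the neuron markers than day 7. Some markers of other states were present in WT at day 0 too. The neural progenitor list (6 genes such as NES and SOX1) summed to 677 to 1172 CPM and the mesenchyme list (10 genes such as COL1A1) to 382 to 1370. Most of the progenitor sum was NES, at a mean of 764 CPM in WT at day 0. SOX1 was at 27.4, SOX9 at 27.1, FABP7 at 25.2, HES5 at 2.57 and PAX6 at 0.263 CPM in WT at day 0. ZFP42, of the pluripotency list, was at 0 to 13.2 CPM there.

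At day 0 the WT cells held most of the epithelial set, but not its best known member. Mean TPM was 202 ± 21.6 (SD, n = 4) for CLDN6, 125 ± 16.9 for KRT18 and 117 ± 12.04 for KRT8. It was 68.3 ± 14.4 for CDH2, 32.1 ± 8.66 for EPCAM, 16.8 ± 3.19 for ZEB2 and 7.50 ± 1.09 for ZEB1. CDH1 stood at 0.570 ± 0.210 and ESRP1 at 0.440 ± 0.0883 TPM. In this order the ranges of KRT18 (105 to 142) and KRT8 (102 to 129) overlapped, as did those of CDH1 (0.380 to 0.870) and ESRP1 (0.350 to 0.530), and no other neighbours did. The TPM of CDH2 was 178, 99.97, 128 and 102 times that of CDH1 in the 4 WT libraries. The label of a cadherin switch is therefore not borne out on the CDH1 side: N-cadherin exceeded E-cadherin before induction, and the epithelial side of the set rests on CLDN6, EPCAM and the keratins.

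One day 0 library stood apart. In KO replicate 1, CDH1 was at 113 CPM and ESRP1 at 107 CPM, against at most 12.8 and 17.7 in the other 11 libraries of that day. EPCAM (99.3 CPM) and CLDN6 (351 CPM) were also highest there, and CDH2 (194 CPM), ZEB1 (19.3 CPM) and ZEB2 (63.1 CPM) were lowest. For 7 of the 9 genes it was thus the extreme of the 12 libraries in the epithelial direction, with a CDH2 to CDH1 ratio in TPM of 1.95. The same library had the highest value for 12 of 14 genes of an epithelial programme list. It was also highest for 11 of 16 tight junction genes and 7 of 8 pluripotency genes. The lists were cut to genes with a mean CPM of at least 1 over the 12 libraries, this one included. A gene low in the rest could thus enter through this library, and its rank then follows from the cut. GRHL2 (20.6 CPM, median 0.393 in the rest) and CLDN7 (18.2, median 0.364) entered in this way. SPINT1 (53.8 CPM, 2.54 to 12.96 in the rest) and MARVELD2 (32.6, 7.81 to 22.01) did not depend on it. KO replicate 1 had the lowest value for 4 of 6 neural progenitor markers. Over all 15474 genes with a mean CPM of at least 1 it was highest for 16.4% and lowest for 15.4%. Surface epithelium markers (KRT5, KRT14, KRT15 and TP63) summed to 0 to 0.0809 CPM over the KO day 0 libraries, so these defining markers were at or near 0. The part of this library in each KO result was measured by leaving it out, and both values are given below.

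**Figure D1:**
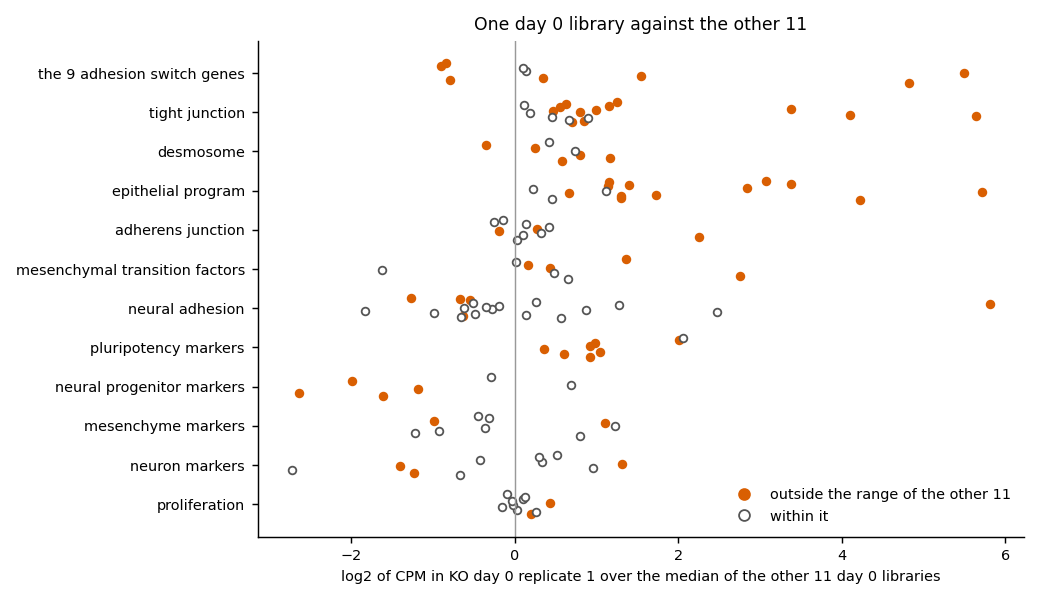
Each point is 1 gene; the x axis is the log2 of its CPM in KO day 0 replicate 1 over the median of the other 11 day 0 libraries, by gene list, and filled points lie outside the range of those 11. Of the 9 member genes 4 lie above that range, CDH1 and ESRP1 farthest, and 3 lie below it, and the tight junction and epithelial programme lists have filled points only on the high side.

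No member passed the threshold between genotypes at day 0: edgeR called 0 of 9 in each of the 3 pairs, while 2 had an unadjusted p under 0.05 between KO and WT (CDH1 and ESRP1), 1 between KO and HET (CDH1) and 0 between HET and WT. Over all genes tested 2.08% were called between KO and WT, 1.63% between HET and WT and 0.856% between KO and HET. The threshold throughout is an adjusted p of 0.05 from edgeR's quasi-likelihood test with Benjamini-Hochberg adjustment over all genes tested. CDH1 was at 2.03, 2.17, 2.15 and 2.81 CPM in WT, 1.26, 12.8, 5.03 and 11.6 in HET and 113, 8.13, 4.00 and 7.70 in KO. The HET libraries ran from below all WT libraries to above them, and KO libraries were all above WT. The KO difference of CDH1 was 3.88 (log2, SE 1.04, adjusted p = 0.0901), and 1.55 (adjusted p = 0.222) without replicate 1. ESRP1 was at 1.10, 1.24, 1.87 and 2.37 CPM in WT, 0.535, 10.8, 5.87 and 17.7 in HET and 107, 4.47, 1.67 and 6.21 in KO. HET replicates 2, 3 and 4 and KO replicates 1, 2 and 4 lay above the WT range, and HET replicate 1 below it. Its KO difference was 4.20 (log2, SE 1.27, adjusted p = 0.138), and 1.35 (adjusted p = 0.481) without replicate 1. DESeq2 called both between KO and WT with all libraries, at adjusted p = 0.00453 for CDH1 and 0.0129 for ESRP1, and called 0 members in the other 2 pairs. Replicate numbers paired the KO and WT libraries of this day in the data, and with the replicate number as a block the count of members called was still 0. EPCAM and CLDN6 overlapped between all genotypes, at 22.8 to 37.5 and 262 to 294 CPM in WT.

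From day 0 to day 3 of induction in WT all 9 members passed the threshold, 7 lower and 2 higher, where 60.0% of all genes tested were called. The median log2 fold change of the 9 was -5.52 (-5.04 with genes at the count floor set to their bound), beside 0.07 over all genes. In bulk RNA fewer cells of a type and less RNA per cell cannot be told apart, here and in every comparison below.

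**Figure D2:**
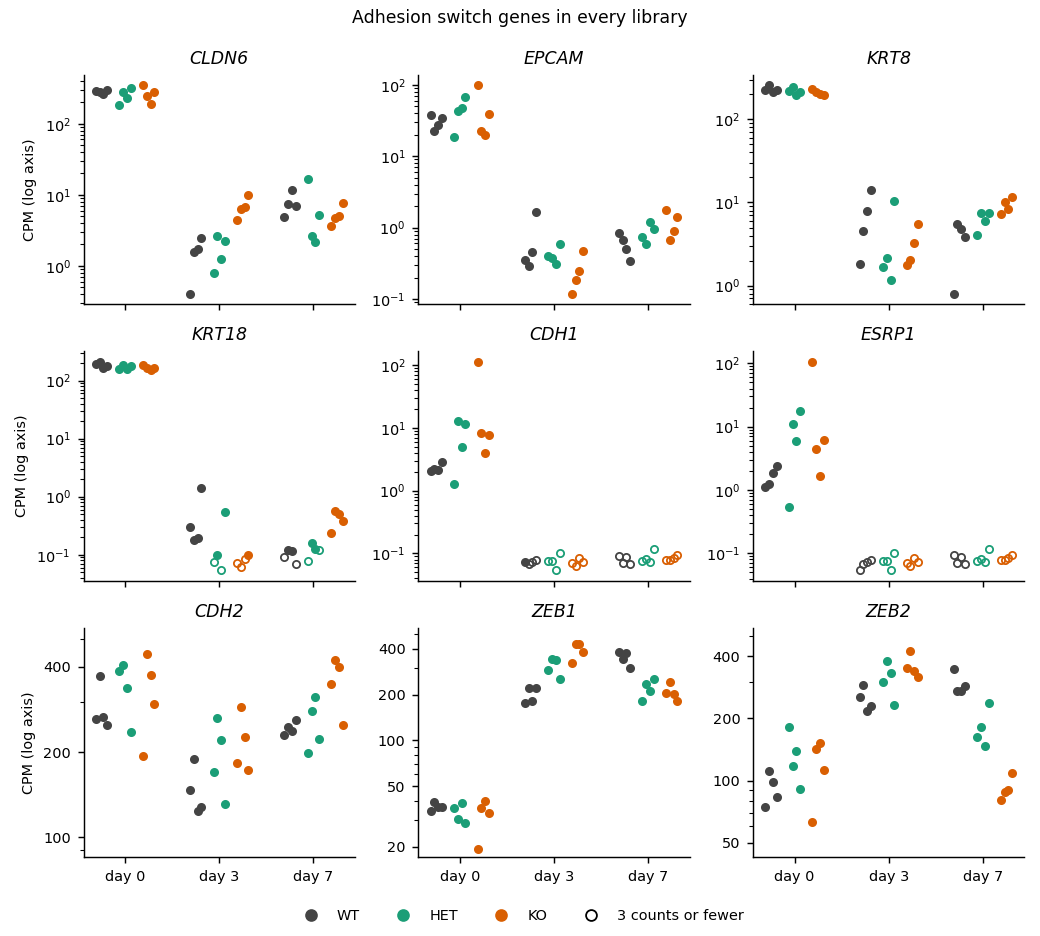
Level of each of the 9 members in every library, in CPM on a log axis, by day (0, 3 and 7) and genotype; each point is a library, and open points are libraries with 3 counts or fewer, drawn at the CPM of 3 counts. CDH1, EPCAM, CLDN6, KRT8, KRT18 and ESRP1 drop after day 0 in all genotypes, ZEB1 and ZEB2 climb from day 0 to day 3, and at day 7 all 4 KO libraries lie below the WT libraries for ZEB1 and ZEB2.

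Among the junction proteins the steepest fall was in CLDN6, a claudin of pluripotent and early embryonic epithelium (chr16:3014712-3020071, minus strand, GRCh38, GENCODE 29). It went from 291, 275, 262 and 294 CPM at day 0 to 0.406, 1.57, 1.75 and 2.46 at day 3, with no overlap (log2 fold change -7.54, SE 0.44, adjusted p = 6.63e-09). EPCAM, a homophilic adhesion molecule of epithelial and pluripotent cells (chr2:47345158-47387601, plus strand), went from 37.5, 22.8, 27.7 and 34.2 to 0.351, 0.292, 0.456 and 1.65 CPM, again with no overlap (log2 fold change -5.52, SE 0.47, adjusted p = 2.41e-07). Replicate 4 was the highest of the day 3 libraries for both genes, and without it the EPCAM change was -6.38. CDH1 (chr16:68737225-68835548, plus strand) went from the low level of 2.03, 2.17, 2.15 and 2.81 CPM to 0.0739, 0.0224, 0 and 0, which are 4, 1, 0 and 0 counts, a 95.1-fold difference of the means (adjusted p = 1.97e-07). Its fitted log2 change was -6.25, and -7.69 without WT day 3 replicate 1, which held 4 of the 5 counts. ESRP1 (chr8:94641074-94707466, plus strand) went from 1.10, 1.24, 1.87 and 2.37 CPM to 1 count in all 4 day 3 libraries together, at least 24.0-fold lower (adjusted p = 4.03e-07). That bound sets the day 3 level to 3 counts per library, the floor used for every bound here.

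The keratins of simple epithelia fell with the junction proteins. KRT18 (chr12:52948871-52952901, plus strand) went from 191, 213, 168 and 178 CPM to 0.295, 0.179, 0.192 and 1.41 (log2 fold change -8.56, SE 0.53, adjusted p = 1.16e-08), and the change was -9.68 on the log2 scale without WT day 3 replicate 4, the highest of the day. Its partner KRT8 (chr12:52897187-52949954, minus strand) went from 227, 259, 214 and 227 CPM to 1.81, 4.53, 7.89 and 14.3 (log2 fold change -5.04, SE 0.59, adjusted p = 4.75e-06). Neither gene's groups overlapped. The TPM of KRT8 was 0.908, 0.922, 0.968 and 0.972 times that of KRT18, the partner with which it forms filaments, at day 0, and 5.08, 19, 20.7 and 7.19 times at day 3, when KRT18 had 16, 8, 8 and 54 counts. The 2 genes overlap by 1084 bases on opposite strands and the sources used here do not give the strand setting of the counting, so reads in the overlap cannot be assigned with certainty. The annotation also holds 51 KRT8 and 67 KRT18 pseudogenes, whose summed level in WT was 10.5 to 11.7 CPM for KRT8 at day 0 and 8.50 to 12.1 at day 3, a sum that lies within the range of KRT8 itself at day 3. Their part in the later KRT8 values was not tested.

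CDH2 (chr18:27950966-28177446, minus strand) did not rise when the epithelial genes fell. It was at 262, 371, 266 and 249 CPM at day 0, 147, 189, 124 and 128 at day 3 and 230.5, 246, 237 and 260.4 at day 7. The day 3 libraries lay below all libraries of both other days. The fall to day 3 (log2 fold change -0.98, SE 0.16, adjusted p = 0.000119) was followed by a rise to day 7 (log2 fold change 0.73, adjusted p = 0.00178). In TPM the day 7 rise was not called, at 0.39 (log2, adjusted p = 0.36), while the fall to day 3 was.

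The repressors rose. ZEB1 (chr10:31318495-31529814, plus strand) was at 34.2, 39.1, 36.5 and 36.5 CPM at day 0, 175, 222, 182 and 221 at day 3 and 380.0, 344, 376 and 301 at day 7, so that no day overlapped another. The rise was 2.44 (log2, SE 0.13, adjusted p = 2.52e-09) to day 3 and a further 0.81 (SE 0.12, adjusted p = 8.23e-05) to day 7. ZEB2 (chr2:144364364-144524583, minus strand) was at 74.9, 111, 98.5 and 83.8 CPM, 254, 291, 217 and 230.1 and 347, 271, 271 and 288 on the 3 days. Day 0 lay below both later days, which overlapped (log2 fold change 1.42, SE 0.15, adjusted p = 1.95e-06 to day 3, and 0.25, adjusted p = 0.187, from day 3 to day 7). ZEB2 thus led ZEB1 in TPM at day 0, with a log2 ratio of ZEB1 to ZEB2 of -1.16 ± 0.14 (SD, n = 4), and trailed it at day 7, with 0.36 ± 0.24.

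Promoter windows of the RefSeq tables (GRCh38.p14, 250 bases before to 50 after a start) were found for 5 of the 9 members, in 12 windows. CDH1, EPCAM, KRT18 and ESRP1 had no entry. The E-box letters CACCTG, or CAGGTG on the other strand, were searched because ZEB proteins are known to bind them. They occurred in 3 of the 12 windows and in 20.6% of the 35116 windows of the same length in the table. The window of CLDN6, which fell, is shown with that of ZEB1 that held the most matches and with that of ZEB2, which rose; capitals mark the searched letters. A match is a description of the letters, not a binding site.
CLDN6 (chr16:3018134-3018433, minus strand, 1 match): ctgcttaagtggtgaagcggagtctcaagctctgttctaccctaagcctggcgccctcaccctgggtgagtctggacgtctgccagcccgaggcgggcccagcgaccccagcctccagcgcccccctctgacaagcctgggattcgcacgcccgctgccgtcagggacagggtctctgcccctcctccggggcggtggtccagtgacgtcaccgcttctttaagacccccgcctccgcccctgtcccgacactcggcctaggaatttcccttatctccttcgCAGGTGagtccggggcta
ZEB1 (chr10:31318966-31319265, plus strand, 3 matches): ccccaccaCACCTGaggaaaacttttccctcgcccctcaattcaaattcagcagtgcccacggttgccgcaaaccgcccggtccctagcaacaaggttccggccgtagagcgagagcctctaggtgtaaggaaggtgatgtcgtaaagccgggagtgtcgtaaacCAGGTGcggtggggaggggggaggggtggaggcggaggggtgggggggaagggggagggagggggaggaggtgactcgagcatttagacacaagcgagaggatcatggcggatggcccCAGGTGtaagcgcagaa
ZEB2 (chr2:144520070-144520369, minus strand, 0 matches): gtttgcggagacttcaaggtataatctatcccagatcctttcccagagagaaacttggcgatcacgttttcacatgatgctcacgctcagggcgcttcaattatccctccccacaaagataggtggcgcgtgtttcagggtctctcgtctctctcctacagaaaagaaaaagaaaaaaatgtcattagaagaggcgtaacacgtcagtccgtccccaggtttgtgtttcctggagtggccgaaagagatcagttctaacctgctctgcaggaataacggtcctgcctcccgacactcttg

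The microRNAs that repress the ZEB genes were not measured in these libraries. MIR200CHG, the host transcript of miR-200c, had at most 2 counts in any library, near absence on every day. The family members miR-200b, miR-200a and miR-429 lie on chromosome 1, apart from miR-200c and miR-141 on chromosome 12. No host transcript of the chromosome 1 group was looked at. For reference the 2 seed classes of the family are shown by 1 mature sequence each from RefSeq, with the seed in capitals (bases 2 to 8).
hsa-miR-200c-3p: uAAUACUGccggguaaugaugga
hsa-miR-141-3p: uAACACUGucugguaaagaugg

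In WT 4 of 9 members passed the threshold from day 3 to day 7, 3 higher and 1 lower, where 46.2% of all genes were called. Besides CDH2 and ZEB1, CLDN6 rose to 4.86, 7.33, 11.5 and 7.02 CPM, with no overlap with day 3 (log2 fold change 2.34, SE 0.37, adjusted p = 0.00013), a level 36.5-fold below day 0. KRT18 fell further to 0, 5, 4 and 1 counts (-2.86, adjusted p = 0.00922), and the change was -1.75 (log2, adjusted p = 0.0132) without WT day 3 replicate 4. EPCAM was at 0.831, 0.666, 0.495 and 0.343 CPM and KRT8 at 0.800, 5.54, 4.83 and 3.80, both overlapping day 3. CDH1 had 2, 2, 3 and 2 counts and ESRP1 1, 0, 0 and 0. On log2(TPM + 1) the call of CLDN6 was the one that held, and those of KRT18, CDH2 and ZEB1 did not. On log2(TPM + 0.1) that of KRT18 held as well, and those of CDH2 and ZEB1 did not. The former scale flattens changes of genes at low TPM and cannot decide on KRT18.

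The related genes of the pathway moved mostly with the members in WT at day 3. Of 17 tight junction genes tested, 14 fell and 0 rose (median log2 -3.75, -3.25 with floor genes at their bound). MARVELD2, a component of tricellular contacts, went from 16.5 ± 1.62 CPM in WT day 0 to 0.204 ± 0.0827 in WT day 3 (log2 -6.34), and OCLN, the occludin strand protein, from 42.6 ± 3.80 CPM in WT day 0 to 2.11 ± 0.198 in WT day 3 (log2 -4.34). Of 7 desmosome genes 6 fell, among them DSP, which links desmosomes to keratins (log2 -4.97), and DSG2, a desmosomal cadherin (-3.80). In an epithelial programme list (transcription factors, proteases and trafficking genes) 10 of 14 fell and 0 rose. MAL2, a protein of apical transport, was at least 89.5-fold lower, and PRSS8, an epithelial protease, changed by -5.43 on the log2 scale. Of the 3 other simple keratins tested 2 fell, KRT19 among them (-4.15). All these counts stand beside 60.0% of all genes called and a median of 0.07.

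Adherens junction genes were mixed: of 10 tested, 5 fell and 1 rose (median -0.61), and NECTIN1 (-3.26) and CDH3, the placental cadherin (-2.99), fell most. Neural adhesion molecules were mixed too at day 3, with 7 of 21 higher and 11 lower (median -0.92). CDH22 went from 0.234 ± 0.102 CPM in WT day 0 to 6.08 ± 0.979 in WT day 3, and CDH6 fell from 145 ± 73.7 CPM in WT day 0 to 1.89 ± 1.01 in WT day 3. From day 3 to day 7, 18 of the 21 rose and 0 fell (median 2.08, all genes 0.01). In WT the neural adhesion genes were thus mostly called higher in the second interval, and the epithelial members mostly called lower in the first. Of 6 further transcription factors of epithelial to mesenchymal transition tested, 3 rose to day 3, with SNAI1 going from 3.36 ± 0.756 CPM in WT day 0 to 14.6 ± 6.56 in WT day 3 and SNAI2 from 6.59 ± 5.56 CPM in WT day 0 to 19.3 ± 3.07 in WT day 3.

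**Figure D3:**
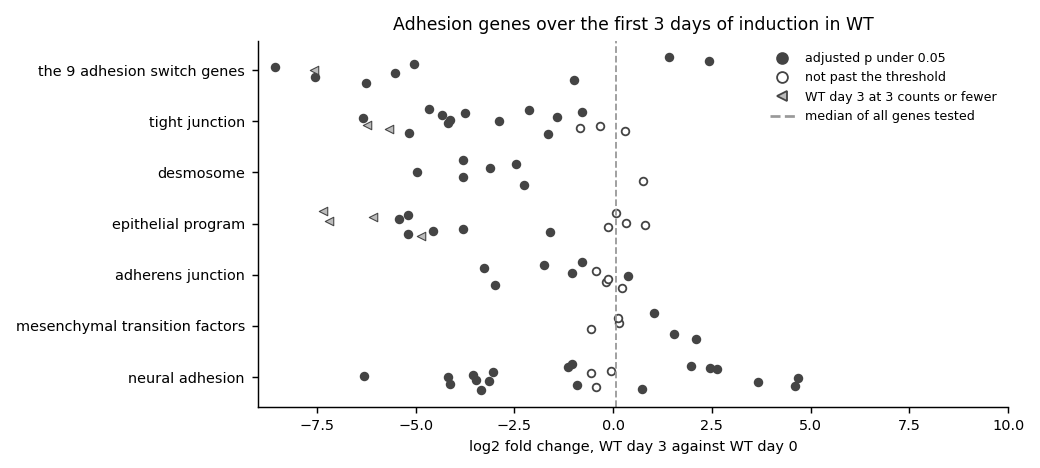
Log2 fold change of each gene in WT from day 0 to day 3, by list, with a dashed line at the median of all genes tested; filled points passed the adjusted p threshold of 0.05, open points did not, and grey triangles mark genes with at most 3 counts in every WT day 3 library, whose fitted value depends on the prior count. Tight junction, desmosome and epithelial programme genes lie mostly below 0, 2 of the 9 member genes lie above it, and neural adhesion genes lie on both sides.

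In the mutant lines the members called from day 0 to day 3 had the directions seen in WT. In HET 9 of 9 members passed the threshold from day 0 to day 3, 7 lower and 2 higher (48.3% of all genes called, median of the members -6.78, all genes 0.05). In KO 8 of 9 did, 6 lower and 2 higher (59.3% called, median -6.05, all genes 0.03). CLDN6 went to 0.804, 2.60, 1.24 and 2.23 CPM in HET (log2 fold change -7.23, SE 0.72, adjusted p = 5.12e-06) and to 4.45, 6.39, 6.62 and 10.0 in KO (log2 fold change -5.28, SE 0.32, adjusted p = 1.17e-08), in both far below the day 0 range. EPCAM went to 0.402, 0.375, 0.306 and 0.583 CPM in HET (log2 -6.78) and 0.119, 0.187, 0.251 and 0.467 in KO (log2 -7.46, or -6.72 without KO day 0 replicate 1). CDH1 had 2, 0, 0 and 0 counts in HET and 1, 0, 0 and 0 in KO at day 3. It was at least 99.8-fold lower than at day 0 in HET and at least 457-fold lower in KO, the latter at least 90.9-fold without KO day 0 replicate 1. ESRP1 had 0, 0, 0 and 0 and 1, 0, 0 and 0 counts, at least 114-fold lower than at day 0 in HET and at least 409-fold lower in KO, the latter at least 56.6-fold without that library.

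KRT8 went to 1.68, 2.15, 1.15 and 10.5 CPM in HET and 1.78, 2.06, 3.28 and 5.50 in KO, and KRT18 to 2, 4, 1 and 16 and 0, 0, 1 and 4 counts. HET day 3 replicate 4 was the highest of its group for both keratins, and without it the HET changes were -7.07 for KRT8 and -11.60 for KRT18 on the log2 scale, against -5.85 and -10.13 with it. CDH2 fell in HET from 386, 405, 336 and 236 to 170.4, 264, 220.1 and 131 CPM, groups that overlapped (log2 -0.82, adjusted p = 0.0121). In KO it was at 194, 445, 373 and 296 and 184, 288, 227 and 174 CPM, which also overlapped (-0.59, adjusted p = 0.0553). Without KO day 0 replicate 1, the lowest day 0 library, the KO difference was -0.77 and passed the threshold (adjusted p = 0.0095). The HET differences of CDH2 (-1.52, adjusted p = 0.0758) and ZEB2 (0.60, adjusted p = 0.358) did not pass on log2(TPM + 1).

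ZEB1 rose to 289.7, 344, 336 and 253 CPM in HET (log2 fold change 3.17, SE 0.17, adjusted p = 4.82e-08) and to 323, 431, 429 and 379 in KO (log2 fold change 3.604, SE 0.21, adjusted p = 1.16e-08), and all these libraries lay above the 175 to 222 CPM of WT. ZEB2 rose to 300.5, 382, 334 and 232 in HET (log2 1.21, adjusted p = 0.000829) and 351, 423, 338 and 316 in KO (1.60, adjusted p = 3.5e-05). In the second interval both ZEB genes fell in the mutants, ZEB1 from day 3 levels that already lay above WT. In KO, ZEB1 went to 205, 243, 202 and 180.1 CPM (log2 fold change -0.92, SE 0.20, adjusted p = 0.00146) and ZEB2 to 80.3, 88.2, 89.8 and 109 (log2 fold change -1.97, SE 0.23, adjusted p = 9.62e-06), neither overlapping day 3. In HET, ZEB1 went to 182, 236, 209.9 and 252 CPM (-0.45, adjusted p = 0.0357) and ZEB2 to 163, 182, 147 and 237 (-0.76, adjusted p = 0.0175). For ZEB1 the HET groups did not overlap, for ZEB2 they did.

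From day 3 to day 7 in HET 4 of 9 members passed the threshold, 2 higher and 2 lower, where 41.2% of all genes were called. Besides the ZEB genes, EPCAM rose to 0.745, 0.594, 1.21 and 0.949 CPM (1.11, adjusted p = 0.0401) and CLDN6 to 16.9, 2.62, 2.18 and 5.18 (2.00, adjusted p = 0.0159). The CLDN6 value rests on HET day 7 replicate 1 and was 0.96 (adjusted p = 0.0628) without it. All 4 HET calls were lost in some refits: EPCAM without any of HET day 3 replicates 1, 2 or 3 or HET day 7 replicates 3 or 4, CLDN6 also without HET day 3 replicate 1, ZEB2 without HET day 3 replicate 2 or HET day 7 replicate 3, ZEB1 without any of replicates 1 to 3 of either day, and, on log2(TPM + 1), all of them.

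In KO 6 of 9 passed from day 3 to day 7, 4 higher and 2 lower (47.8% called). EPCAM rose to 1.77, 0.675, 0.905 and 1.40 CPM (log2 fold change 2.21, SE 0.62, adjusted p = 0.00976) and KRT8 to 7.25, 10.1, 8.34 and 11.7 (log2 fold change 1.56, SE 0.29, adjusted p = 0.000487), both with no overlap with day 3. KRT18 went from 0, 0, 1 and 4 to 9, 22, 18 and 12 counts (3.66, adjusted p = 0.000104), and by 5.22 without KO day 3 replicate 4. CDH2 rose to 347, 423, 398 and 249 CPM (0.69, adjusted p = 0.0325), a call lost when any 1 of replicates 1 to 3 of day 7, or replicates 1, 3 or 4 of day 3, was left out. CLDN6 stayed at 3.6, 4.73, 5.03 and 7.67 CPM, overlapping its day 3 range. On log2(TPM + 1) the falls of ZEB1 and ZEB2 held and the other calls did not. On log2(TPM + 0.1) those of EPCAM, KRT8 and KRT18 were kept and that of CDH2 was lost. An added 1 flattens changes of genes at low TPM, so the former scale cannot decide on EPCAM and the keratins.

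At day 3, 2 of the 6 members tested between KO and WT passed the threshold, both higher in KO, where 21.6% of all genes were called; CDH1, ESRP1 and KRT18 were too low to be tested. CLDN6 was at 4.45, 6.39, 6.62 and 10.0 CPM in KO against 0.406, 1.57, 1.75 and 2.46 in WT, with no overlap (log2 fold change 2.16, SE 0.49, adjusted p = 0.00702), and ZEB1 at 323, 431, 429 and 379 against 175, 222, 182 and 221, also with no overlap (log2 fold change 0.97, SE 0.17, adjusted p = 0.00111). An epithelial claudin and a repressor of epithelial genes were thus both higher. On log2(TPM + 1) the ZEB1 difference was 1.43 and did not pass the threshold (adjusted p = 0.0864), and that of CLDN6 passed. CLDN6 overlaps TNFRSF12A, a gene on the opposite strand, by 1627 bases. CDH2 (0.57, adjusted p = 0.103), ZEB2 (0.53, 0.0507), EPCAM (-1.40, 0.105) and KRT8 (-1.17, 0.262) did not pass.

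The replicate numbers paired the KO and WT libraries of day 3 only weakly in the data. Every number correlated above 0.1, but not every library was most like that of its own number. With the replicate number as a block all 6 tested members passed, with adjusted p = 0.00894 for CDH2 (log2 0.56), 0.00774 for ZEB2 (0.53), 0.0247 for EPCAM (-1.25) and 0.0491 for KRT8 (-0.99). EPCAM and KRT8 were lower in KO in that fit, CLDN6, ZEB1, CDH2 and ZEB2 higher.

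Markers of other states moved in the same KO libraries. The neuron list summed to 4851 to 8108 CPM in KO and 1367 to 1699 in WT at day 3, with 9 of 10 genes higher. The proliferation list summed to 542 to 1394 and 1678 to 2874 CPM, with 7 of 10 lower. None of these genes was at 0 in all libraries of a group. Their part in the member differences was not tested. Over all genes tested, 21.6% were called between KO and WT at day 3 (2723 higher, 1926 lower). The neural adhesion list had 18 of 21 genes higher in KO and 0 lower (median 1.69, all genes -0.05); CADM2, a synaptic adhesion molecule, was at 8.71 ± 2.96 CPM in WT day 3 and 163 ± 128 in KO day 3. Of 10 adherens junction genes 6 were higher, led by the neural catenins CTNNA2 (2.66) and CTNND2 (2.30). Of 13 tight junction genes CXADR was higher (2.21) and 2 were lower. JUP, the plakoglobin of desmosomes and adherens junctions, was at 14.2 ± 1.67 CPM in WT day 3 and 79.5 ± 24.5 in KO day 3 and was the 1 called of 7 desmosome genes.

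Between HET and WT at day 3, 0 of 6 tested members passed the threshold (3.28% of all genes called) in edgeR's test, 1 had an unadjusted p under 0.05, and DESeq2 called 1. ZEB1 was at 289.7, 344, 336 and 253 CPM in HET, all above WT (0.61, adjusted p = 0.0641). These libraries were also paired by number in the data, by the same weak rule, and ZEB1 passed with the block (0.61, adjusted p = 0.0177). Between KO and HET, 1 of 6 passed (4.35% called): CLDN6, 2.00 higher on the log2 scale in KO with no overlap (adjusted p = 0.035), a call lost when any KO library or HET replicates 1 or 3 were left out. The KO comparisons share their KO libraries and are not independent of each other.

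At day 7 between KO and WT 4 of 6 tested members passed, 2 higher and 2 lower, where 32.6% of all genes were called. Single libraries stood apart on this day too, by the count used for KO day 0 replicate 1. WT day 7 replicate 1 was highest for 17.8% and lowest for 22.3% of 16075 genes with a mean CPM of at least 1. HET day 7 replicate 1 was highest for 19.5% and lowest for 19.4%. ZEB2 was at 80.3, 88.2, 89.8 and 109 CPM in KO against 347, 271, 271 and 288 in WT, with a wide gap between the groups (log2 fold change -1.71, SE 0.18, adjusted p = 5.07e-05). Its antisense transcript ZEB2-AS1, which overlaps it by 3500 bases, was at 0.574, 0.493, 0.792 and 0.748 CPM against 6.31, 3.71, 3.38 and 3.11, so it lay below WT as well. ZEB1 was at 205, 243, 202 and 180.1 against 380.0, 344, 376 and 301 CPM, with no overlap (log2 fold change -0.79, SE 0.15, adjusted p = 0.00172). KRT8 was at 7.25, 10.1, 8.34 and 11.7 against 0.800, 5.54, 4.83 and 3.80 CPM, with no overlap (log2 fold change 1.28, SE 0.44, adjusted p = 0.0386), and CDH2 at 347, 423, 398 and 249 against 230.5, 246, 237 and 260.4, which overlapped (log2 fold change 0.51, SE 0.18, adjusted p = 0.0479). EPCAM was at 1.77, 0.675, 0.905 and 1.40 CPM in KO and 0.831, 0.666, 0.495 and 0.343 in WT (1.01, adjusted p = 0.0652), and CLDN6 no longer stood above WT (-0.57, adjusted p = 0.444).

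The KRT8 call was lost when any 1 of the KO libraries or WT replicates 3 or 4 was left out, and that of CDH2 when any 1 WT library or KO replicates 1, 2 or 3 were left out. With the share of small structural RNA as a covariate, ZEB1 (-0.85, adjusted p = 0.00151) and ZEB2 (-1.65, 7.79e-05) passed, and KRT8 (1.03, 0.104) and CDH2 (0.28, 0.183) did not. On log2(TPM + 1) none of the 4 passed, with KRT8 at 1.03 and CDH2 at 0.99; there the median of all genes was 0.17 higher in KO, the ZEB2 difference was -1.28 (-1.45 relative to that median) and the ZEB1 difference -0.29 (-0.46 relative).

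HET at day 7 differed from WT in ZEB1 and ZEB2: 2 of 6 tested members passed, both lower, where 14.4% of all genes were called. ZEB1 was at 182, 236, 209.9 and 252 CPM, with no overlap with WT (log2 fold change -0.67, SE 0.15, adjusted p = 0.01), and ZEB2 at 163, 182, 147 and 237, also with no overlap (log2 fold change -0.69, SE 0.18, adjusted p = 0.0198). In TPM the direction turned, to 0.08 for ZEB1 and 0.14 for ZEB2 on log2(TPM + 1), where the median of all genes was 0.46 higher in HET; relative to it they were -0.37 and -0.32. The ZEB2 call was lost with the small RNA covariate (-0.63, adjusted p = 0.0594) and without WT replicate 1 or HET replicates 2 or 3, and that of ZEB1 was kept in these refits. Between KO and HET 1 of 6 passed (1.40% called), ZEB2 with 80.3, 88.2, 89.8 and 109 CPM in KO against 163, 182, 147 and 237 in HET, with no overlap (log2 fold change -1.01, SE 0.18, adjusted p = 0.0112), a call lost without KO replicates 2 or 3 and on log2(TPM + 1), where the difference was -1.42 (adjusted p = 0.271). In CPM, HET was thus between WT and KO in ZEB2 at day 7. On log2(TPM + 1) HET lay above WT by 0.14, and below it by -0.32 only relative to the median of all genes.

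At day 7 the mesenchyme list (collagens and other fibroblast genes, with DCN at 0 in all WT and HET libraries of that day) summed to 9.61 to 11.3 CPM in KO, 11.1 to 51.7 in HET and 47.6 to 71.5 in WT, with 4 of 7 tested genes lower in KO. The proliferation list summed to 54.8 to 61.7, 54.5 to 77.6 and 97.0 to 301 CPM, with 9 of 10 lower in KO and 8 of 10 in HET. Of all genes tested against WT at day 7, 32.6% were called for KO (3683 higher, 3387 lower). For HET it was 14.4% (1805 higher, 1324 lower). The neuron list had 5 of 10 higher in KO and 4 of 10 in HET, at 12080.0 to 16040.0, 11440.0 to 14100.0 and 5867 to 11740.0 CPM. The part of these cell states in the ZEB differences was not tested. Of 6 further transition factors SNAI2 (-4.12) was lower in KO and KLF8 higher, beside lower TCF3 and TCF4 and higher SNAI3.

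**Figure D4:**
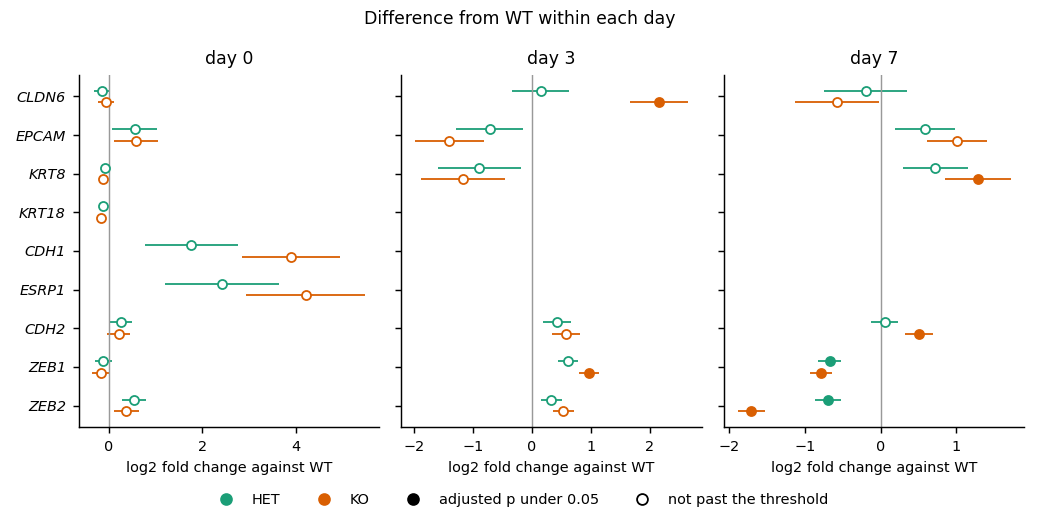
Log2 difference between genotypes (KO or HET against WT) for each tested member at days 0, 3 and 7, with bars of 1 standard error; filled points passed the adjusted p threshold of 0.05 and open points did not. CLDN6 and ZEB1 are higher in KO at day 3, and ZEB1 and ZEB2 are lower in both mutants at day 7.

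Whether the changes over time differed between genotypes was tested with interaction terms over all 36 libraries. From day 0 to day 3, 3 members passed for KO against WT (8.55% of all genes called) and 0 for HET against WT (0.271%), where 2 had an unadjusted p under 0.05 in edgeR's test and DESeq2 also called 0. The KO change of CLDN6 was less negative by 2.27 (log2, SE 0.65, adjusted p = 0.0248), a call lost without KO day 0 replicate 3 or WT day 3 replicate 1, and the rise of ZEB1 was larger by 1.18 (SE 0.23, adjusted p = 0.0013). The KRT18 term of -3.71 (adjusted p = 0.0144) rests on day 3 counts of 0, 0, 1 and 4 in KO and 16, 8, 8 and 54 in WT, and was -2.57 (adjusted p = 0.082) without WT day 3 replicate 4.

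From day 3 to day 7, 6 members passed for KO (18.5% called) and 1 for HET (4.74%). ZEB1 rose in WT and fell in both mutants, a difference of -1.78 for KO (SE 0.23, adjusted p = 1.28e-06) and -1.26 for HET (SE 0.23, adjusted p = 0.000961). ZEB2 fell in KO and did not pass in WT, a difference of -2.26 (SE 0.31, adjusted p = 2.49e-06). CLDN6 rose in WT and did not pass in KO, a difference of -2.77 (adjusted p = 0.00291). EPCAM (2.38, adjusted p = 0.0305), KRT8 (2.43, 0.0177) and KRT18 (6.49, 0.000142) rose in KO, whereas in WT KRT18 fell and the other two did not pass. The EPCAM and KRT8 terms were 1.505 (adjusted p = 0.181) and 1.84 (0.0768) without WT day 3 replicate 4, and that of EPCAM was also lost without KO day 3 replicates 1 or 2, WT day 7 replicates 3 or 4 or KO day 7 replicate 1. On log2(TPM + 1) the KO terms of CLDN6 and ZEB2 from day 3 to day 7 passed the threshold. Those of ZEB1 did not, at -1.71 (adjusted p = 0.109) for KO and -0.85 (adjusted p = 0.613) for HET.

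The ratio of 2 members within a library does not depend on how that library is scaled. The log2 ratio of ZEB1 to ZEB2 went from -1.16 ± 0.14 to -0.36 ± 0.17 and 0.36 ± 0.24 in WT on days 0, 3 and 7 (mean ± SD, n = 4). In HET it was -1.74 ± 0.32, 0.09 ± 0.06 and 0.30 ± 0.55, and in KO -1.75 ± 0.12, 0.20 ± 0.28 and 1.43 ± 0.36. The linear ratio at day 7 was 2.89, 3.41, 2.85 and 1.89 in the KO libraries and 1.16, 1.46, 1.49 and 1.08 in the WT libraries, with no overlap. ZEB1 thus exceeded ZEB2 most in KO at day 7. The KRT8 to KRT18 ratio stayed between 0.908 and 1.04 in all 12 day 0 libraries, and between 12.8 and 23.1 in KO at day 7, where KRT18 had 9, 22, 18 and 12 counts. The CDH2 to CDH1 ratio was 229, 40.0, 63.6 and 23.6 in HET and 1.95, 46.8, 107 and 53.2 in KO at day 0, a wider spread than in WT.

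**Figure D5:**
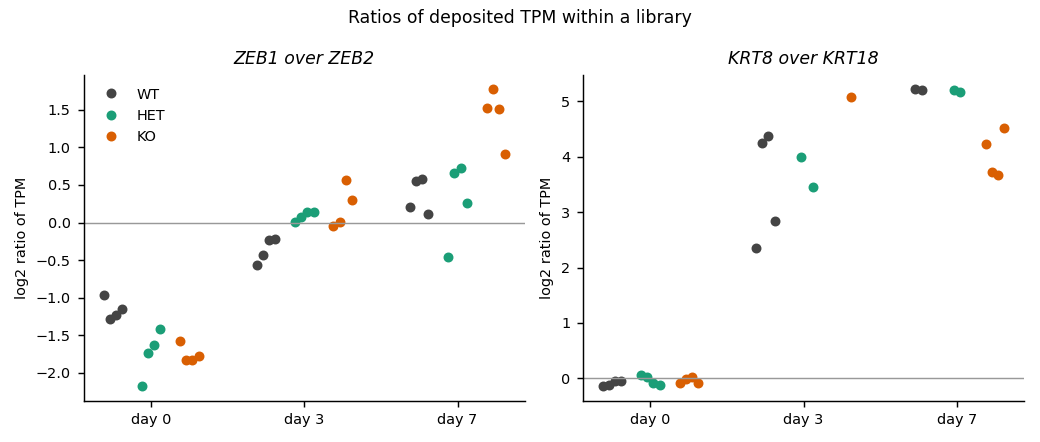
Log2 ratio in TPM of ZEB1 over ZEB2 (left) and of KRT8 over KRT18 (right) in each library, by day and genotype; libraries in which a gene of the pair had 3 counts or fewer are left out. The left panel climbs from below 0 at day 0 to above 0 at day 7 except in 1 HET library, with the KO libraries highest, and the right panel lies near 0 at day 0 and above 2 later.

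Among 13421 genes with a mean of at least 5 CPM in 1 or more groups, the 3 most like each member over the 36 libraries were named by Pearson's r of log2(CPM + 1). The libraries share days, so high values are common, and no p is given; values in parentheses are r. CDH1 was most like ESRP1 (0.987), SPINT1 (0.977) and CDCP1 (0.971), and ESRP1 like CDH1 (0.987), SPINT1 (0.958) and ST14 (0.951). EPCAM was most like CYP2S1 (0.989), PRSS8 (0.989) and TDGF1 (0.989), CLDN6 like PODXL (0.978), RARG (0.974) and IFNLR1 (0.974), KRT18 like VRTN (0.997), L1TD1 (0.996) and IFITM1 (0.995) and KRT8 like GPR143 (0.981), SFRP2 (0.980) and PTGIS (0.979). ZEB1 was most like SCARB2 (0.988), FOXP2 (0.982) and NHLH1 (0.980), and ZEB2 like ZC3H12C (0.949), DMRTA1 (0.923) and ZBTB18 (0.903). CDH2 had the lowest top value, with RTL5 (0.904), CLIP1 (0.902) and ANKRD17 (0.888).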

How the data were processed

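Total RNA depleted of rRNA was sequenced as 151 bp read pairs. The deposited tables hold expected counts per gene, which per the file values are whole numbers, and the authors' TPM and FPKM values. The submitters' processing notes list GRCh38, cutadapt 4.8, FastQC 0.11.8, MultiQC 1.20, STAR 2.7.8a and RSEM 1.3.3, and the annotation release and strand setting are not given in the sources used here. Gene positions are from GENCODE 29. Of 62714 features 4 reporter sequences (at most 0.0171% of a library) were left out.

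The main test was edgeR 4.0.16 (R 4.3.3) on the counts, with TMM scaling, filterByExpr and the quasi-likelihood F test, adjusted by Benjamini-Hochberg over all genes tested. Each genotype's 12 libraries were fitted for changes over time, the 12 libraries of a day for genotypes, and all 36 for interactions. Ratios used the authors' TPM, with their FPKM as an alternative. Other alternatives were DESeq2 1.42.0, its size factors, library size alone, no filter, limma 3.58.1 on log2(TPM + 1) and log2(TPM + 0.1), the replicate block, only the 2 groups compared, leaving out each library and, chosen after seeing the data, each library's small structural RNA percentage as a model term. The fits were run on simulated counts with the same spread for every gene, no outlier library and changes only in genes well above the count floor. That run does not cover members near the floor or groups with an outlier library. The members, the gene lists and the rules for naming genes (the 2 largest called changes per list, the 3 most alike genes per member) were chosen with earlier results of these data known.

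The labels share replicate numbers across groups without saying what they mark. Deviations from group means over 16355 genes correlated above 0.1 for every number in 3 of 15 comparisons: KO and WT at day 0 (r 0.29 to 0.695), KO and WT at day 3 (0.128 to 0.584), and HET and WT at day 3 (0.166 to 0.796). In these 3 comparisons the pairing is taken from the data alone. Only between KO and WT at day 0 was every library also most like that of its own number.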

Additional observations from a re-analysis of the deposited data

Results flagged for a closer look

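A library far from the other 3 of its group was found in 7 of 70 groups of 4 tested by Dixon's ratio, where chance at 1 in 20 gives 3.5. In KO day 0 replicate 1, CDH1 was at 113.2 CPM and ESRP1 at 106.6 CPM. In WT day 3 replicate 4, EPCAM was at 1.649 CPM and KRT18 at 1.413 CPM. In HET day 3 replicate 4, KRT8 was at 10.49 CPM and KRT18 at 0.5486 CPM. In WT day 0 replicate 2, CDH2 was at 371.4 CPM. Each of these was the highest of its 4 libraries, and no cause was tested.

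The change over time differed between a mutant and WT for 10 members and intervals by the interaction test. From day 3 to day 7 in HET, ZEB1 differed by -1.263 on the log2 scale. From day 0 to day 3 in KO, CLDN6 differed by 2.27, KRT18 by -3.712 and ZEB1 by 1.18. From day 3 to day 7 in KO, EPCAM differed by 2.383, CLDN6 by -2.769, KRT8 by 2.434, KRT18 by 6.494, ZEB1 by -1.776 and ZEB2 by -2.259.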

How the results depend on the processing

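Of 60 calls of a member, 30 were kept under every alternative run and 30 were lost under 1 or more; in 2 of these the direction turned in TPM, where ZEB1 in HET against WT at day 7 was 0.084 on log2(TPM + 1) and 0.074 on log2(TPM + 0.1), and ZEB2 was 0.138 and 0.139. The counts of members called from day 0 to day 3 stayed within 1.5 times in all 3 genotypes. On log2(TPM + 1) and log2(TPM + 0.1) the count went from 4 to 1 and 2 in WT from day 3 to day 7, from 4 to 0 and 1 in HET and, on the former, from 6 to 2 in KO. It went from 2 to 1 and 1 for KO against WT at day 3, from 4 to 0 and 0 at day 7, from 2 to 0 and 0 for HET against WT at day 7, and from 1 to 0 and 0 for KO against HET at days 3 and 7. For interactions it went from 1 to 0 and 0 (HET, day 3 to 7), from 3 to 1 and 1 (KO, day 0 to 3) and from 6 to 2 and 3 (KO, day 3 to 7). DESeq2 called 2 in place of 0 for KO against WT at day 0, 1 in place of 0 for HET against WT at day 3 and 2 in place of 1 for the HET interaction of day 3 to 7. Library size alone gave 2 in place of 4 for KO against WT at day 7 and 1 in place of 2 for HET, and only the 2 groups compared gave 1 for HET. The small RNA covariate gave 2 for KO and 1 for HET at day 7, 1 for HET at day 3 and 2 for the HET interaction of day 3 to 7. With the replicate block 6 members in place of 2 were called for KO against WT at day 3, 1 in place of 0 for HET against WT at day 3 and, where the numbers do not pair the libraries, 2 in place of 4 in HET from day 3 to day 7. In the paired comparison of KO with WT at day 0 the block changed no call. Leaving out 1 library gave counts of 1 to 5 in HET from day 3 to day 7, 2 to 4 for KO against WT at day 3, 2 to 3 at day 7, 0 to 1 for HET against WT at day 3, 1 to 3 at day 7, 0 to 1 for KO against HET at days 3 and 7, and 1 to 3 for the HET interaction of day 3 to 7. Within a library TPM and FPKM differ by a constant factor, so a ratio of 2 genes is alike in both apart from rounding. The FPKM ratios are therefore no separate check. The mean log2 ratio of KRT8 to KRT18 at day 7 was 5.21 in WT and 5.19 in HET from TPM. From FPKM it was 5.09 and 5.17, with 2 libraries in each group.

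Over all genes, the calls in edgeR and on log2(TPM + 1) were 4649 and 816 for KO against WT at day 3, 7070 and 1007 at day 7, 708 and 39 for HET against WT at day 3, 3129 and 271 at day 7, and 10555 and 4496 in KO from day 3 to day 7. The share of calls that were higher went from 52.0% to 14.7% in WT from day 0 to day 3 and from 58.6% to 85.9% for KO against WT at day 3, with medians of all genes of -0.38 and 0.20. With the block the calls were 960 in place of 425 for KO against WT at day 0, 8138 at day 3 and 1895 for HET against WT at day 3. Without HET day 7 replicate 1 the calls of HET against WT at day 7 were 7674. ESRP1 after day 0 lay at or under 3 counts in every library, and CDH1 in all but WT day 3 replicate 1, so differences in them were not detectable there. Mature microRNAs and proteins were not measured, and counting error is the only error that the 3 count floor covers.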

Other observations

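Among the transition factors outside the 9 genes, KLF8, a repressor of the Kruppel-like family, separated the lines on every day. It had 0 counts in all WT libraries at days 0 and 3 and at most 1 count in a WT library at day 7. In HET it was at 6.34 to 11.1, 3.70 to 5.73 and 11.2 to 16.5 CPM on days 0, 3 and 7, and in KO at 6.22 to 10.1, 8.38 to 12.3 and 12.3 to 16.0. At day 3 it was at least 152-fold higher in KO than in WT. SNAI2, a repressor of E-cadherin, was at 9.84 to 23.7 CPM in WT and 0.593 to 1.17 in KO at day 7, with no overlap (log2 -4.12, SE 0.32, adjusted p = 4.64e-06).

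Single cadherins of the neural adhesion list differed between KO and WT at day 7 by more than CDH2 did. CDH20, a type II cadherin, was at 6.65 to 11.1 CPM in KO and 0.0308 to 0.309 in WT (log2 5.56, SE 0.61, adjusted p = 6.5e-05), and CDH9, also of type II, at 5.69 to 12.7 and 0.0476 to 0.457 (log2 5.30, SE 0.61, adjusted p = 8.14e-05). NCAM2, an adhesion molecule of olfactory and other neurons, was at 66.5 to 154 in KO and 1.14 to 4.04 in WT (log2 5.36, SE 0.63, adjusted p = 9.43e-05). CDH6 went the other way, at 5.68 to 20.8 and 15.2 to 34.0 (log2 -1.27, SE 0.38, adjusted p = 0.0219). These genes were chosen after their values were seen.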
